A study of Caenorhabditis elegans with 2 samples.

Results

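Of the 31 protein-coding genes of Caenorhabditis elegans whose names begin with rps-, 4 carried a thresholded SEA-2 peak at their start, namely rps-26, rps-1, rps-24 and rps-19. The 31 genes encode proteins of the cytosolic small ribosomal subunit and were taken by name from 19973 nuclear protein-coding genes of the Ensembl annotation of WBcel235. The family was chosen with earlier results of these data known. For each gene, the start window was the stretch that begins 1000 bp upstream of the annotated gene start and ends 200 bp downstream, and peaks with their summit in it were collected. The rule takes names only, so ubl-1, which encodes a small-subunit protein as part of a fusion, was not among them.

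The peaks come from chromatin immunoprecipitation and sequencing (ChIP-seq) of whole young adult worms, collected at 64 hours after growth from starved, bleach-synchronised L1 larvae. All animals were of strain OP586, in which the transgene wgIs586 supplies SEA-2 fused to TY1, EGFP and 3xFLAG tags together with a wild-type unc-119 copy, in an unc-119 (tm4063) mutant background. Per the description labels the precipitation was made with an antibody against GFP, whereas the antibody label names sea-2. There were 2 biological replicates and 1 group, with no untagged strain and no other stage analysed here, and every difference below is therefore a description without a test. Read depths are unknown. The tagged protein comes from a transgene, and the tissues of whole animals cannot be told apart.

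Small ribosomal subunits carry the messenger RNA during translation and hold the decoding centre, where codons are read by transfer RNAs. Their proteins are made in equal amounts and in bulk in growing cells and in the germline, and their genes are short, strongly expressed and spread over the genome rather than clustered. SEA-2 has zinc fingers and is known in the worm for signalling the number of autosomes in sex determination and for its part in the control of lin-28.

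The 4 sequences shown are the 201 bases centred on the strongest summit at rps-1 and at rps-24, which were in the thresholded list, and at rps-12 and rps-28, which had the highest signals among the genes that were not. They are written 5' to 3' on the plus strand of ce11, which is also the strand of all 4 genes, and capitals mark GAGAGA on either strand. The windows are chrIII:4475564-4475764 for rps-1, chrIV:385454-385654 for rps-24, chrIII:5679027-5679227 for rps-12 and chrIV:1659143-1659343 for rps-28.
rps-1: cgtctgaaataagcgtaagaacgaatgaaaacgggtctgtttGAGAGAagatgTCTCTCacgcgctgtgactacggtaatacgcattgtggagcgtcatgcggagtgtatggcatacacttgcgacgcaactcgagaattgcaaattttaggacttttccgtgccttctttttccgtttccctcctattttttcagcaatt
rps-24: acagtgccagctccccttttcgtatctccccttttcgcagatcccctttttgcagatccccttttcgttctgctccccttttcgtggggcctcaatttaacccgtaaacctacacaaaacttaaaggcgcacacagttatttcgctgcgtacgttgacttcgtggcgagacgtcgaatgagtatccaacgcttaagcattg
rps-12: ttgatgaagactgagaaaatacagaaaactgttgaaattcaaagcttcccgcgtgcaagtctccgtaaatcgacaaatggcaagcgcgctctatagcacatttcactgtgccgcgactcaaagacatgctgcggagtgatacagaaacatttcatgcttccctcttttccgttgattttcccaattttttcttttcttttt
rps-28: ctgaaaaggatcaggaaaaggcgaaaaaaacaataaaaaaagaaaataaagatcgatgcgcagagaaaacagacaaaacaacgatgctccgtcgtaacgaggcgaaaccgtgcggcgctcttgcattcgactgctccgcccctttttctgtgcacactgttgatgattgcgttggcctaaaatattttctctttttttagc

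The rps-1 window held GAGAGA and its reverse complement TCTCTC, and the other 3 windows held neither. The rps-24 window began with 5 copies of CCCCTTTT, a unit searched for on both strands after the sequence had been seen. At least 2 copies were present in 28 of 17224 candidate windows at gene starts (0.163%) and in 7 of 453 windows of the optimal list (1.55%). Of these 453 summits only 180 lay in a start window, so the shares cover unlike sets. Of the 31-mers within 100 bp of the rps-24 summit, 39.2% recurred elsewhere in the nuclear genome. At the other 21 rps genes with a candidate this share was 0%, apart from 3.5% at rps-13. What such recurring sequence does to the rps-24 peak was not tested.

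Candidates are the peaks of the authors' longer ranked list of the pooled replicates, and selected peaks are those in their optimal thresholded list. Both kinds of list rest on the irreproducible discovery rate (IDR), an estimate of the chance that a peak's place in the ranking is not shared by a second list. An optimal peak stood in the start window of 4 of the 31 rps genes (12.9%), against 226 of all 19973 genes (1.13%). In the smaller conservative list, rps-26, rps-1 and rps-24 kept their peaks, which makes 3 of 31 (9.68%) against 1.07% of all genes. The deposited signal, the authors' peak caller value of unstated scale, was 143.9, 116.3, 115.7 and 85.02 at rps-26, rps-1, rps-24 and rps-19. The first 3 lay above the optimal list's median of 93.7, and rps-19 lay below it.

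**Figure D1:**
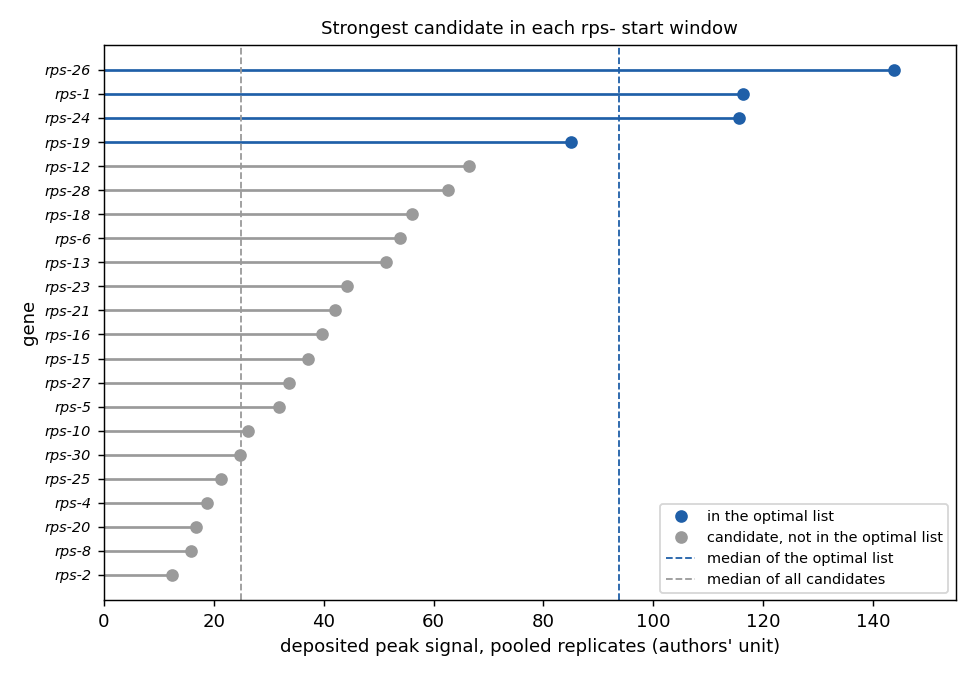
Pooled peak signal of the strongest candidate in the start window of each of the 22 rps genes that have one, on a linear axis in the authors' unit, with dashed lines at the medians of the optimal list (93.7) and of all candidates (24.9). The 4 genes in the optimal list lie at 85.02 and above, and the next gene, rps-12, lies at 66.4.

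The strongest of these peaks was at rps-26 (WBGene00004495), whose protein sits near the exit of the messenger RNA channel. Its peak on chromosome I, at 14759367 to 14759670, ranked 87 of 82563 candidates by signal, and its summit lay between genes, 411 bp upstream of the start. Replicate 1 had a signal of 102 there in its own ranked list and replicate 2 had 42.5. Both values lay above the 99th percentile of their lists, at 99.91 and 99.2, and only the peak of replicate 1 was in its replicate's thresholded list. The scale of signals between lists is not stated, so percentiles within a list are the firmer measure across replicates. The same summit lay 46 bp upstream of the start of tmem-107, a membrane protein gene transcribed in the other direction, and 107 bp from the snoRNA gene F39B2.14 inside tmem-107. Which of the 3 genes the peak belongs to cannot be told apart from position.

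At rps-1 (WBGene00004470), which encodes a protein on the platform side of the subunit, the summit lay 254 bp upstream of the start and ranked 139. Replicate 1 had a signal of 57.05 and replicate 2 had 59.1, at the 99.53rd and 99.76th percentile. Here the peak passed the threshold of replicate 2 only. The summit also fell into the window of the divergent gene ifet-1, a translational repressor gene of the germline, 514 bp upstream of its start. It lay within the annotated non-coding RNA gene F56F3.10 and 7 bp from F56F3.11 on the other strand.

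At rps-24 (WBGene00004493), whose human counterpart is mutated in some patients with Diamond-Blackfan anaemia, the summit lay 333 bp upstream of the start. It ranked 140 and was the only selected rps summit in no other protein-coding gene's start window. A pseudogene on the other strand began 618 bp from it. Replicate 1 had a signal of 64.6, which passed its threshold, and replicate 2 had 47.8, which did not, at the 99.67th and 99.5th percentile. At rps-19 (WBGene00004488), another gene whose human counterpart is tied to that anaemia, the summit lay 287 bp upstream and ranked 379. Replicate 1 had 52.2 and replicate 2 had 28.8, and neither passed its own threshold, at the 99.34th and 93.45th percentile. This summit was nearer to hsr-9, a divergent gene of the DNA damage response, 158 bp upstream of its start. The rps-19 peak also had the weakest reproducibility, with a -log10 IDR of 2.13 in the shorter ranked list, from which the optimal list was drawn, and of 1.81 in the longer list, where an IDR of 0.01 corresponds to 2.

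**Figure D2:**
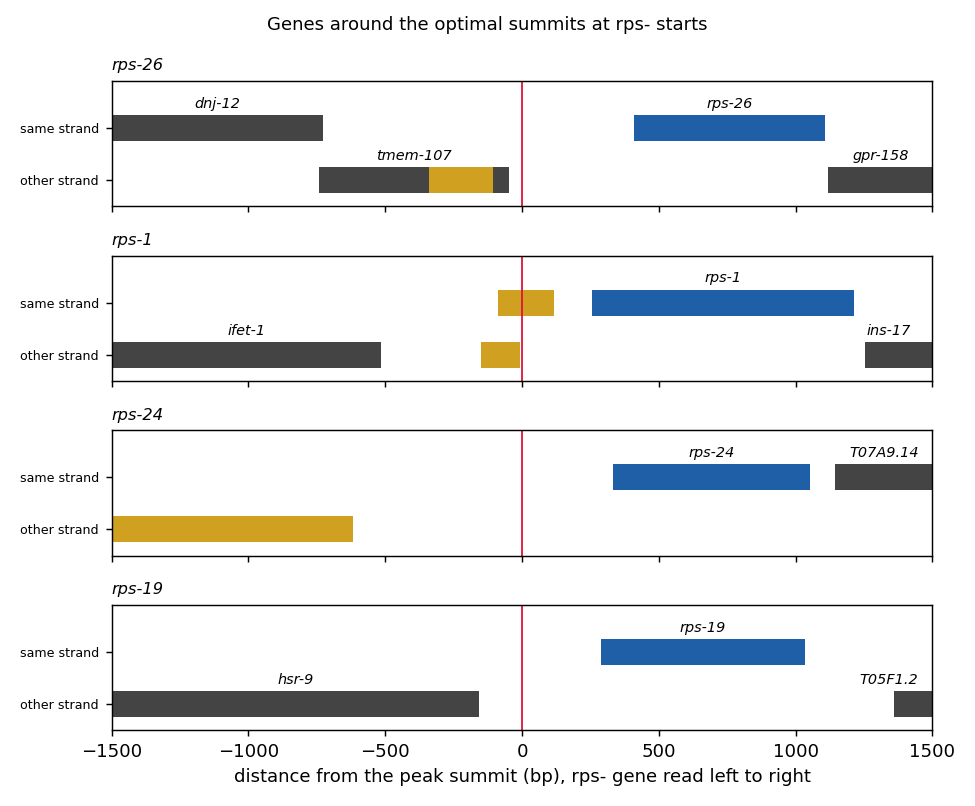
Annotated genes around the summits at rps-26, rps-1, rps-24 and rps-19, as distance from the summit in bp with the rps gene (blue) read from left to right. Other protein-coding genes are dark, non-coding genes and a pseudogene yellow, and the red line is the summit. Each summit lies 254 to 411 bp upstream of the rps start, and at rps-26 and rps-19 it is nearer to the divergent gene.

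The -log10 q values of the 4 peaks ran from 1.27 at rps-1 to 1.48 at rps-19, around the optimal list's median of 1.3. In all 4 genes the summit lay between protein-coding genes. Of the 180 optimal summits in any start window, 56 (31.1%) lay in windows of 2 or more protein-coding genes. Among the 4 rps summits 3 did. Of the strongest summits at the 18 unselected rps genes, 10 lay in another protein-coding gene's window. When a summit was given only to its nearest protein-coding start, rps-1 and rps-24 were left, against 0.836% of all genes.

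No rps peak was selected in both replicates. Of the 31 genes, 0 had an optimal peak that overlapped thresholded peaks of both, against 0.22% of all genes, a share too small for 31 genes to show a difference. With each replicate's own thresholded list, replicate 1 had peaks at rps-24 and rps-26 (2 of 31, against 0.476% of all genes). Replicate 2 had a peak at rps-1 (1 of 31, against 0.295%). In its own ranked list each replicate had a candidate at all 4 genes, at signals of at least 28.8. The median candidate had 19 in replicate 1 and 16.3 in replicate 2. Since the optimal list rests on the IDR, a candidate in both replicates is not independent of the selection of these 4 peaks.

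**Figure D3:**
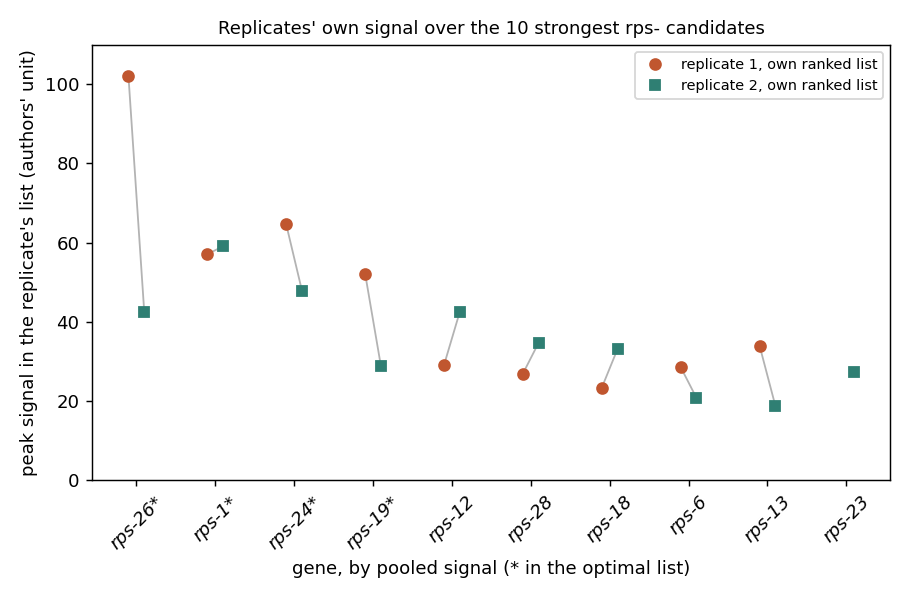
Signal in each replicate's own ranked list (circles replicate 1, squares replicate 2, authors' unit) over the 10 rps candidates with the highest pooled signal, lines joining the pair of 1 gene and a missing symbol meaning no overlapping candidate. Replicate 1 is higher at rps-26, rps-24, rps-19, rps-6 and rps-13, and replicate 2 at rps-1, rps-12, rps-28 and rps-18.

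Just outside the selected genes, the next signal after the 85.02 of rps-19 was 66.4. The strongest candidate at rps-12, which encodes a small-subunit protein near the head of the subunit, was this candidate and ranked 1180, with 29.05 in replicate 1 and 42.5 in replicate 2. At rps-28, whose protein lies near the exit of the messenger RNA, the values were 62.7 pooled, 26.9 and 34.7, and at rps-18, whose protein contacts the large subunit, 56.2 pooled, 23.3 and 33.1. At these 3 genes replicate 2 was higher in signal and in percentile, whereas at rps-26, rps-24 and rps-19 replicate 1 was. The rps-12 summit lay at -171 bp from the rps-12 start and nearer, at -122 bp, to that of the divergent gene ska-3, and the rps-28 summit also fell into the window of Y41D4B.4. The rps-18 summit lay in an exon of the divergent translocon gene sec-61.A.

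At rps-6, whose protein is the known substrate of S6 kinase, the strongest candidate had 53.9 pooled, 28.5 in replicate 1 and 20.8 in replicate 2. Its summit lay 170 bp downstream of the start, in an intron of the gene and in the window of the divergent gene usp-3. At rps-13 the candidate 96 bp downstream, also in the window of the divergent gene nfx-1, had 51.3 pooled, 33.98 in replicate 1 and 18.8 in replicate 2. At rps-23, which encodes a protein of the decoding centre, the strongest candidate had 44.3 and lay at -979 bp from the start, in an exon of the divergent gene dpm-3. Replicate 2 had 27.4 there and replicate 1 had no overlapping candidate. The other 12 unselected genes with a candidate, rps-21, rps-16, rps-15, rps-27, rps-5, rps-10, rps-30, rps-25, rps-4, rps-20, rps-8 and rps-2, had pooled signals from 42.01 down to 12.4. Where a gene had more than 1 candidate, the further ones, 14 in all, had signals of 2.23 to 43.1 with a median of 16.5.

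Among these 12 genes the strongest pooled peak was often overlapped in only 1 replicate or in neither. At rps-27, at -611 bp, replicate 1 had 28.4 and replicate 2 no overlapping candidate, and at rps-21, at -10 bp, replicate 1 had 17.7 and replicate 2 no overlapping candidate, though it had one of 8.61 elsewhere in the window. At rps-16, at -344 bp, replicate 1 had 12.1 and replicate 2 had 25.9, and at rps-15, at -397 bp, the values were 20.5 and 21.5, at the 57.7th and 76.3rd percentile of their lists. At rps-5 the pooled candidate of 31.96 had no overlapping candidate in either replicate, and replicate 1 had one of 7.21 elsewhere in the window.

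In all, 22 of the 31 genes (71%) had at least 1 candidate, against 61.9% of all genes, so the presence of a candidate was near the background. A strongest candidate within the top 5% of the ranked list by signal was present at 8 of 31 genes, the 4 selected ones with rps-12, rps-28, rps-18 and rps-6, which is 25.8% against 5.91% of all genes. This limit was set after the values had been seen. The count uses the longer list. In the shorter list rps-20 also passed the limit, at the 95.4th percentile, and the share over all genes in that list is not given here. At all 8 genes this strongest pooled peak was overlapped by a candidate of each replicate. Among the 14 other genes with a candidate, the strongest pooled peak was overlapped in both replicates at 4, in replicate 1 only at 6, in replicate 2 only at 1 and in neither at 3. Anywhere in the start window, 14 of the 31 genes had a candidate in both replicates' own lists. Since the pooled list is made from both replicates, a high pooled signal and an overlap in both are not independent.

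**Figure D4:**
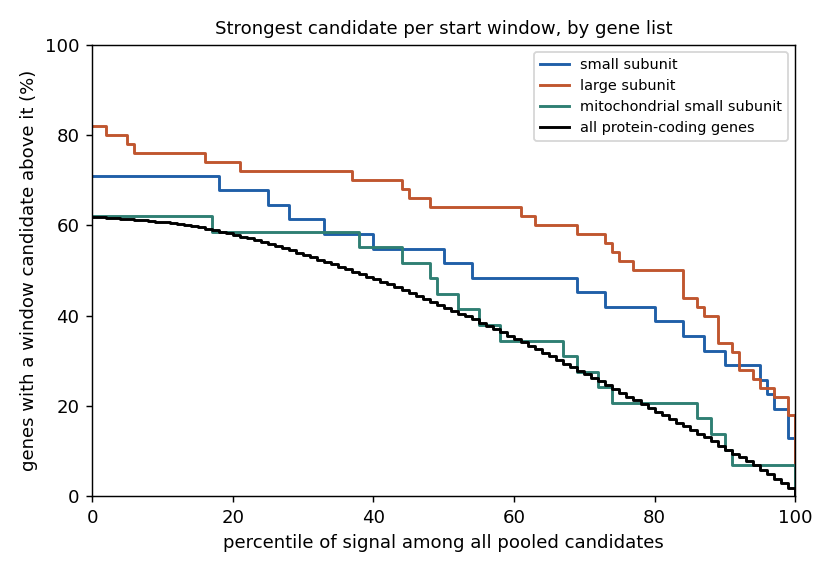
Share of genes (%) whose strongest start-window candidate exceeds a given percentile of signal among all pooled candidates, for rps genes (31), large subunit genes (50), mitochondrial small subunit genes (29) and all protein-coding genes (19973). Genes without a candidate stay in the denominator, so the curves start at 71%, 82%, 62.1% and 61.9%. At the 95th and 99th percentile the small and large subunit lists lie above all genes. The mitochondrial list lies at 6.9% (2 genes) against 5.91% of all genes at the 95th percentile and at 6.9% against 9.45% at the 91st. At the 99th percentile these 2 genes place it above all genes too, at 6.9% against 1.73%.

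Over the genes with a candidate, the median signal of the strongest one was 40.9 in the rps genes and 30.4 in all genes, at the 85.4th and 65.1st percentile of the list. In the replicates' own lists the rps median lay at the 65.6th percentile in replicate 1 (22 genes, against the 59th over all genes) and at the 91.5th in replicate 2 (17 genes, against 58.7). The rps genes stood higher in replicate 2 by this measure, but the medians of the replicates cover different genes. Of the 14 rps genes with a candidate in both replicates, 7 had the higher percentile in replicate 1. Thresholded peaks stood at 2 rps genes in replicate 1 and at 1 in replicate 2, from lists of 167 and 119 peaks. Only genes with a candidate enter these medians.

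The 9 genes without a candidate in the longer list were rps-0, rps-3, rps-7, rps-9, rps-11, rps-14, rps-17, rps-22 and rps-29. Of these, 3 had a candidate of their own in replicate 1, 1 had one in replicate 2, and 4 had one in the shorter pooled list. The highest was at rps-22, with 33.02 in replicate 1, none in replicate 2 and 40.9 in the shorter pooled list. At rps-0, rps-3, rps-11 and rps-17 no list held a candidate. The lists hold only what the peak caller reported, and a missing candidate is therefore no measurement of absence. At rps-20 the lists also differed, with a strongest candidate of 16.9 in the longer list and 53.3 in the shorter.

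**Figure D5:**
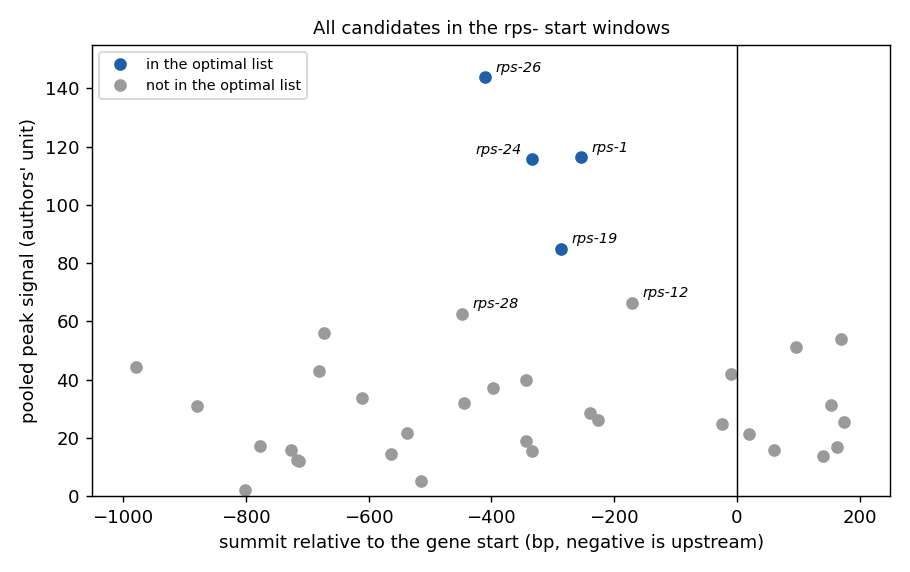
Pooled signal (authors' unit) of all 36 candidates in rps start windows against the distance of the summit from the gene start in bp, negative values upstream, with the 6 strongest named. The 4 in the optimal list lie between 411 and 254 bp upstream, while the others spread over the whole window.

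The 36 candidates were spread over the windows, with 28 upstream of the start. The 4 selected summits lay between 411 and 254 bp upstream, whereas the strongest summits of the 18 unselected genes ran from -979 to 170 bp relative to the start, with a median of -344 bp. By chromosome, 2 of 8 rps genes on I, 0 of 1 on II, 1 of 9 on III, 1 of 10 on IV and 0 of 3 on V were selected, and no rps gene lies on X. The shares over all genes of each chromosome are not given here, and with so few genes these counts set no difference between chromosomes. GC content within 100 bp of the summit was 44.3 to 49.3% in the 4 selected peaks, with a median of 44.8%. It was 32.3 to 52.2% with a median of 40.3% in the strongest unselected candidates, so the groups overlap. The medians were 47.8% over optimal peaks in start windows and 39.3% over all candidates there.

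CGCGCA, searched on both strands within 100 bp of the summit, was found at 0 of the 22 strongest rps candidates, against 19.4% of optimal peaks in start windows and 4.75% of candidates there. GAGAGA was found at 1 of the 4 selected summits (rps-1) and at 3 of the 18 unselected ones, against 29.4% and 13.7%. TATAAA was found at 0 of the 4 and at 5 of the 18, against 10% and 16.9%. With so few windows these counts describe the sequences and set no difference.

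Neighbouring starts were counted for the rps genes only, so whether their number is unusual was not tested. Another protein-coding start lay in the window of 20 of the 31, and for 19 it was on the other strand. In 3 of these pairs the partner encodes a large subunit protein, with rps-10 facing rpl-24.1, rps-30 facing rpl-39 and rps-14 facing rpl-36. None of the 3 pairs held an optimal peak, which at the 1.13% of all genes sets no difference. The strongest candidates were 26.3 at rps-10 and 24.8 at rps-30, with none at rps-14 in the longer list. In 4 genes, rps-2, rps-7, rps-16 and rps-17, a gene on the same strand ended within 500 bp upstream of the start. None of these 4 had an optimal peak in the start window, against 4 of the other 27 rps genes and 1.13% of all genes, and with 4 genes a count of 0 sets no difference.

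A further 2 optimal peaks lay close to rps genes but outside the windows. Upstream of rps-16 a summit with a signal of 81.3 (45.2 in replicate 1, 34.7 in replicate 2) lay 1721 bp from the rps-16 start and 39 bp upstream of fib-1, and it was also in the start window of mut-15. The gene fib-1 encodes fibrillarin, the methyltransferase of the nucleolus that modifies ribosomal RNA, lies on the same strand and ends 109 bp before rps-16 begins. Inside rps-12 a summit with a signal of 80.5 (42.9 in replicate 1, 34.6 in replicate 2) lay 647 bp downstream of the start, in an exon and 70 bp from the snoRNA gene F54E7.11. It was in the start windows of pst-2, whose start was the nearest, and of ska-3. Neither peak was in a replicate's own thresholded list. The nearest optimal summit to the 27 rps genes with none in the window lay from 647 to 434504 bp away, with a median of 106985 bp. In all, 5 rps genes hold 7 snoRNA genes. An optimal peak in the start window was found at 0 of these 5, which at the 1.13% of all genes sets no difference.

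Other genes of the translation machinery were taken from lists of names, written with earlier results of these data known. Of 50 large subunit genes (rpl- and rla-), 7 had an optimal peak in the window (14%), at rpl-3, a gene for a protein near the peptidyl transferase centre (signal 253), rpl-15 (231), rpl-35 (173), rpl-20 (157), rpl-7A (148), rpl-12 and rpl-24.2 (77.7). For 5 of the 7 the peak overlapped thresholded peaks of both replicates, and for 0 of the 4 rps peaks. Over all protein-coding genes, 44 of the 226 with an optimal peak had such an overlap, so a count of 0 among 4 sets no difference. The shares of genes with an optimal peak were 12.9% and 14% for the small and the large subunit, and a strongest candidate in the top 5% stood at 25.8% and 24% of the genes. The difference between the lists in replicate overlap was not tested. Of 29 mitochondrial small subunit genes (mrps-), 2 had an optimal peak (6.9%), at mrps-12 (77.9) and mrps-35 (75.5), and 0 were in the conservative list. Of 41 translation factor genes, 2 had one (4.88%), at ifet-1 through the summit shared with rps-1 and at eif-2Bgamma, a subunit of the exchange factor of initiation (114). Of 22 genes on a list for small subunit assembly and the nucleolus, 3 had one (13.6%). These were larp-1 (141), pro-1, a gene for ribosomal RNA processing (110), and fib-1 (81.3). The list was written by hand and takes in larp-1 as an RNA-binding protein gene. Whether open or heavily transcribed chromatin takes part in any of these counts was not tested.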

How the data were processed

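Per the deposited descriptions, the 8 peak lists were made by the authors on ce11, the WBcel235 sequence. Aligner, peak caller and depth were not given in the sources used here. Each deposited signal and deposited IDR score belongs to a peak, and the deposited -log10 q and -log10 IDR belong to each list. The optimal list matched the shorter pooled ranked list (81415 candidates) in signal, score and q for 453 of 453 peaks, and the conservative list came from the longer one (82563). Positions of all optimal peaks were found in the longer list. Pairs of columns in the pooled ranked lists that hold values of the compared lists (4 columns) were not used. The replicates' values come from their own lists, by an overlap of at least 1 bp.

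Summits were assigned to gene starts of Ensembl release 115. Ranks and percentiles are by signal within a list. No test was made, since the design has 1 group and peaks are not replicates. The assignment was tested on simulated summits. All genes with an optimal peak were named, then the 6 strongest unselected genes, those with no candidate, and the list genes with a peak. Members, lists and motifs were chosen with earlier results of these data known. The tools were Python 3.11.15, numpy 2.4.6, pandas 2.3.3 and matplotlib 3.10.9. The alternatives were other lists, thresholds, windows, starts, overlaps and single replicates.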

Additional observations from a re-analysis of the deposited data

How the results depend on the processing

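Of 33 recomputed values of the 4 main results, 27 stayed within 1.5 times the reported count or within the spread between replicates. Among the 33, 11 belong to the count over thresholded peaks of both replicates, which was 0 in the main setting. Several of these settings only narrow the main one and could not move a count of 0, so the 27 are no measure of stability. The number of rps genes with an optimal peak was 4. It was 2 with summits given to the nearest start only (rps-1 and rps-24), and 1 to 2 with a single replicate's thresholded list, with rps-1 left without replicate 1 and rps-24 and rps-26 left without replicate 2. It was 3 with the conservative list, with an IDR of 0.005 or less, or with signals at or above the optimal median, and rps-19 was the gene lost each time. In the wider window, 2000 bp upstream to 500 bp downstream, it was 5, with the fib-1 peak counted for rps-16, and the share over all genes was 1.61%. The count of peaks over thresholded peaks of both replicates was 0 in the main setting and 1 to 2 when only the other replicate was required. The median percentile of the strongest candidate was 85.4 in the pooled list and 65.6 to 91.5 when either replicate was left out. The number of genes with a candidate ran from 17 to 29 over windows and lists. The cause of these changes was not tested. The shorter pooled list was added after the data were seen, because the planned list proved to be the longer one itself. No paired analysis was possible because the design has 1 group. Depth is unknown, so the level at which a gene fails to give a candidate is unknown too.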
